A study of Caenorhabditis elegans with 16 samples.

Results

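The libraries compared here are those of starved first-stage (L1) Caenorhabditis elegans larvae that carried daf-2(e1370), irld-39(duk1) and irld-52(duk17) together, called the triple mutant. They are set against those of wild-type larvae of strain N2. They were chosen by their titles: 4 libraries titled LRB457 or LRB458 and 4 titled N2, 8 of the 16 libraries of the series. LRB457 and LRB458 are independent lines of the same triple genotype with 2 libraries each (replicates 1 and 3 of LRB457, replicates 1 and 4 of LRB458), and N2 has replicates 1 to 4. The other 8 libraries are quoted only beside triple mutant values. They are 4 of the daf-2(e1370) single mutant CB1370 and 4 of the irld-39(duk1); irld-52(duk17) double mutant LRB444, and they entered the fit, which shares 1 estimate of the spread. Well-fed gravid adults of every strain were bleached, the embryos were kept at 20 °C without food, and 10000 whole larvae per library were collected 24 h later, 12 h after hatching. Polyadenylated RNA was sequenced, so each value is an average over all tissues of the larva, in which fewer cells of a type and less RNA per cell cannot be told apart. The daf-2(e1370) allele reduces the receptor's function in every cell, and the labels do not describe the lesions of duk1 and duk17. Each triple mutant line contributes 2 libraries, so a difference private to 1 line has few libraries behind it. The samples are labelled as biological replicates, and the spread between them is the error used throughout.

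Larvae that hatch without food arrest in the L1 stage and live on stored reserves until they feed. The receptor DAF-2, the worm's insulin/IGF receptor, signals through the kinases AGE-1, PDK-1, AKT-1 and AKT-2 to hold the FoxO transcription factor DAF-16 in the cytoplasm. When the receptor is less active, DAF-16 enters the nucleus, represses growth and induces genes of stress resistance, fat use and dormancy. The irld genes encode secreted or membrane proteins whose extracellular part resembles the ligand-binding L domains of the insulin and EGF receptors. The genotype compared here combines a weakened receptor with alleles of a pair of such genes.

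Gene counts ranged from 15527842 to 24903552 per triple mutant library and from 14033534 to 16096121 per wild-type library, and no pair of replicates held identical counts. On the first principal component of log2 CPM (counts per 1e6 gene counts), which carried 53.1% of the variance over the 8 libraries, the triple mutant stood at 44.3 and 49.3 for LRB457 replicates 1 and 3 and at 12.98 and 58.4 for LRB458 replicates 1 and 4, against -35.7, -43.4, -46.5 and -39.3 for N2 replicates 1 to 4. The groups therefore separated on this component, and LRB458 replicate 1 stood apart from the other 3 triple mutant libraries. On the second component (15.2%) N2 replicate 3 stood at 45.3, above the other 3 wild-type libraries, which lay between -27.7 and 12.78. The 6 body wall muscle markers summed to 20830 to 24710 CPM in the triple mutant, against 9441 CPM in N2 replicate 3 and 22400 to 23470 CPM in the other wild-type libraries. All marker lists, that of body wall muscle included, had overlapping sums in the triple mutant and wild type. Pharynx markers (6 genes) summed to 2019 to 3783 CPM in the triple mutant, against 1941 to 3417 CPM in wild type, intestinal markers (7 genes) to 2105 to 2475 against 2006 to 3066, and neuronal markers (8 genes) to 1559 to 1808 against 1468 to 2489. Epidermis and cuticle markers (6 genes) summed to 118 to 138 CPM in the triple mutant, against 83.6 to 135 CPM in wild type, primordial germ cell markers (5 genes) to 108.5 to 121 against 76.5 to 130.4, and early embryo markers (13 genes) to 317 to 334 against 270.4 to 476. Adult and oocyte genes (6) summed to 4.38 to 26.3 CPM in the triple mutant, against 3.50 to 7.90 CPM in wild type, and genes of fed larvae (6) to 149 to 205 against 132 to 257. The 33 sperm genes summed to 3.41 to 6.29 CPM in the triple mutant, against 1.03 to 3.89 CPM in wild type, and 8 of them, of the msp family, were at 0 in all 8 libraries. Apart from those 8 sperm genes, none of the markers was at 0 in all 8 libraries.

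**Figure D1:**
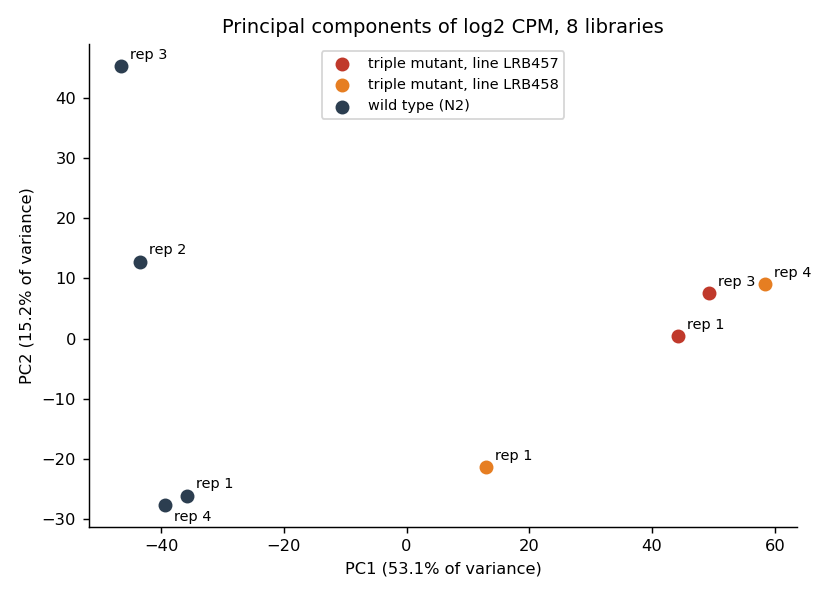
Each point is 1 library placed by its first 2 principal components of log2 CPM over the tested genes. The 4 triple mutant libraries lie at 12.98 or above on the first component and the 4 wild-type libraries at -35.7 or below, LRB458 replicate 1 is the triple mutant library nearest to wild type, and N2 replicate 3 is highest on the second component.

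None of the mutated genes marked its allele by its transcript level. Values below are in the order LRB457 replicates 1 and 3, LRB458 replicates 1 and 4, and then N2 replicates 1 to 4. daf-2 (WBGene00000898, chromosome III, 2994514 to 3040846, coordinates of WBcel235) stood at 456, 414, 374 and 406 CPM in the triple mutant, against 542, 289.5, 243 and 559 CPM in wild type. The wild-type range enclosed all 4 triple mutant values, and the log2 fold change of the triple mutant over wild type, with its standard error, was 0.01 ± 0.22 (edgeR quasi-likelihood test, adjusted p = 0.976). irld-39 and irld-52 were too low to test: they summed to 26 and 27 counts over the triple mutant and 13 and 16 counts over wild type. With so few reads the libraries carry no transcript-level check of these alleles, and the genotypes rest on the labels.

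A floor of 1 CPM in 4 or more of the 16 libraries left 14058 genes for testing, and 2871 of them (20.4%) passed an adjusted p of 0.05 between the triple mutant and wild type: 1413 rose (10.1%) and 1458 fell (10.4%). The risers moved further than the fallers. At 2-fold or more 733 genes rose and 373 fell, at 4-fold or more 302 rose and 75 fell, and at 16-fold or more 72 rose and 3 fell. The median log2 fold change was 1.04 over the called risers and -0.65 over the called fallers. The 4 libraries of the groups did not overlap for 3127 tested genes (22.2%), with all triple mutant libraries above all wild-type libraries for 1534 and below for 1593. Scaling to all reads in place of TMM factors kept the total at 2869 and turned the split to 1802 higher and 1067 lower, so the balance of rises and falls depends on the scaling. Without LRB458 replicate 1 and N2 replicate 3 the test called 2631 genes, 2096 of them among the 2871.

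Abundance and direction went together. With the tested genes cut by mean CPM into 4 bins of like size, 11.6% rose and 4.89% fell in the lowest bin (median 1.54 CPM), and in the highest (median 83.3 CPM) 6.80% rose and 16.8% fell. The precision of a test also grows with counts, and its part in this gradient was not tested. By CPM the largest gains were of the cuticle collagens col-42 and col-103. col-42 stood at 7354, 6526, 7369 and 7788 CPM in the triple mutant, against 3254, 4204, 3625 and 2636 CPM in wild type (1.08 ± 0.17, adjusted p = 0.000387). col-103 stood at 2687, 2415, 2846 and 2873 CPM in the triple mutant, against 1117, 1455, 999.6 and 1064 CPM in wild type (1.22 ± 0.18, adjusted p = 0.000201). The largest loss was of asp-1, an aspartic protease of the gut lumen and lysosome, at 7092, 6346, 8907 and 7661 CPM in the triple mutant, against 17674, 22573, 11488 and 16575 CPM in wild type (-1.19 ± 0.19, adjusted p = 0.000516). In col-42, col-103 and asp-1 the groups did not overlap. The gain next after that of col-103 was of ctb-1, a gene of the mitochondrial genome (0.56 ± 0.17, adjusted p = 0.0315). Its groups overlapped, and its call was lost without any 1 of 7 libraries.

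**Figure D2:**
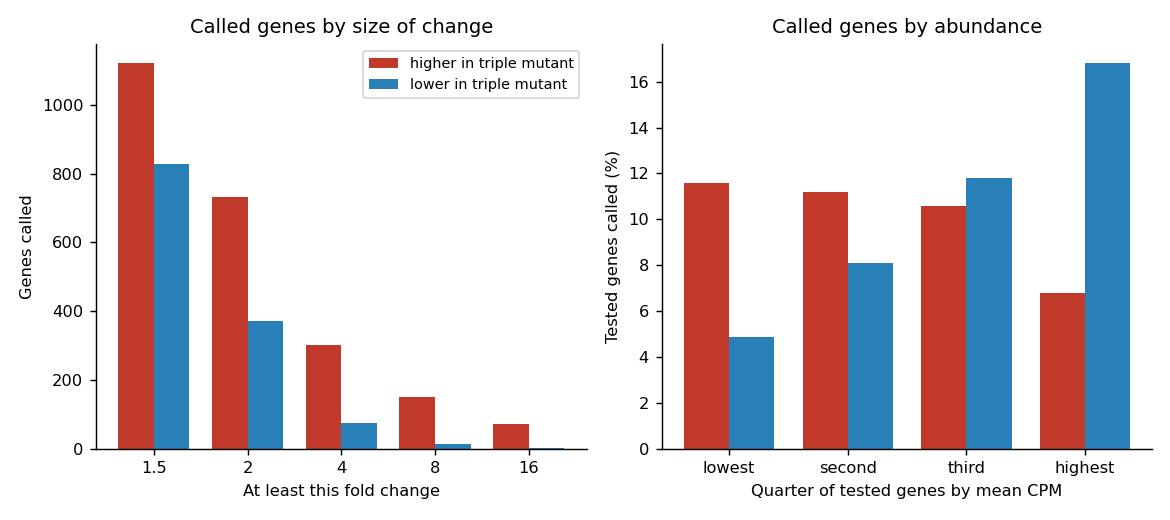
Left, the number of genes called higher (red) or lower (blue) in the triple mutant at or above each fold change; right, the percent of tested genes called in each direction within 4 bins of mean CPM. Rises outnumber falls 302 to 75 at 4-fold or more, and the share of genes called lower grows to 16.8% in the highest bin.

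The largest increases were of genes that were nearly silent in wild-type larvae. H39E23.3 (WBGene00044201, chromosome V, 14107811 to 14110051) had the smallest adjusted p of all tested genes, with 165, 173, 109.9 and 143 CPM in the triple mutant, against 2.11, 2.13, 2.66 and 1.22 CPM in wild type (6.17 ± 0.28, adjusted p = 3.23e-09). Its 4 triple mutant values were close together, and no wild-type library exceeded 2.66 CPM. Most of the other large increases were not of this even kind. C45B2.3 stood at 11.4, 30.7, 0.438 and 42.9 CPM in the triple mutant, against 0, 0.137, 0 and 0 CPM in wild type (9.0 ± 2.13, adjusted p = 0.00908). F57H12.6 stood at 102, 229.9, 7.49 and 269.7 CPM in the triple mutant, against 0.682, 0.206, 1.53 and 0.431 CPM in wild type (7.71 ± 1.58, adjusted p = 0.00392). gst-33, a glutathione S-transferase, stood at 53.9, 115, 2.04 and 127 CPM in the triple mutant, against 1.09, 1.03, 1.13 and 0.790 CPM in wild type (6.19 ± 1.43, adjusted p = 0.00786). In all 3 genes every triple mutant library was above every wild-type library, but LRB458 replicate 1 was more than 10-fold below the next triple mutant library.

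That library was the lowest of the triple mutant in 219 of the 302 genes that rose 4-fold or more, against 28 and 33 genes for LRB457 replicates 1 and 3 and 22 genes for LRB458 replicate 4. Over all 14058 tested genes it was the lowest in 4453, against 3070, 3736 and 2799 for the others in the same order. In 95 of the 302 genes the highest triple mutant library was at least 10-fold above the lowest, against 157 of all 14058 tested genes. Among the 75 genes that fell 4-fold or more 1 gene had such a spread. For those the triple mutant is the low group, and the spread within wild type was not counted. The fold changes of the 302 risers therefore often describe a mean over unlike libraries. Leaving out LRB458 replicate 4, the highest library for many of them, lowered the log2 fold change of C02E7.7 to 6.39 against 7.13 with all libraries, that of K01D12.8 to 5.83 against 6.85 and that of C45B2.3 to 8.40 against 9.0, all of which stayed below an adjusted p of 0.05. Without N2 replicate 2, whose 2 reads were the only ones of C45B2.3 in wild type, the value for that gene was 11.5, and without N2 replicate 3 that of F57H12.6 was 8.41 against 7.71. The daf-2 mutant libraries also spread widely in C45B2.3 (mean and SD 7.75 ± 12.1 CPM), F57H12.6 (65.7 ± 97.1 CPM) and gst-33 (28.2 ± 42.8 CPM). In H39E23.3 they were even (154 ± 18.8 CPM).

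The next genes were chosen by summed counts without a model, with at most 3 over a group and 200 or more over the other. Their ratios come from the counts that chose them, and the intervals leave out the spread between libraries. C45B2.3 had 1820 counts over the 4 triple mutant libraries and 2 over the 4 wild-type libraries, a ratio of 669 (185 to 5526) after allowing for depth (95% interval, counting error only). lbp-8, a lipid carrier that acts in fat signalling from the lysosome, had 411 counts over the 4 triple mutant libraries and 2 over the 4 wild-type libraries, a ratio of 151 (41.5 to 1251). far-4, a fatty acid and retinol binding protein, had 294 counts over the 4 triple mutant libraries and 2 over the 4 wild-type libraries, a ratio of 108 (29.6 to 896). The cytochrome P450 gene cyp-14A4 had 502 counts over the 4 triple mutant libraries and 2 over the 4 wild-type libraries, a ratio of 184 (50.8 to 1527). Each was found in all 4 triple mutant libraries, with the fewest counts in LRB458 replicate 1: 9 of C45B2.3, 3 of lbp-8, 12 of far-4 and 4 of cyp-14A4. far-4 did not reach the level needed for the test.

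**Figure D3:**
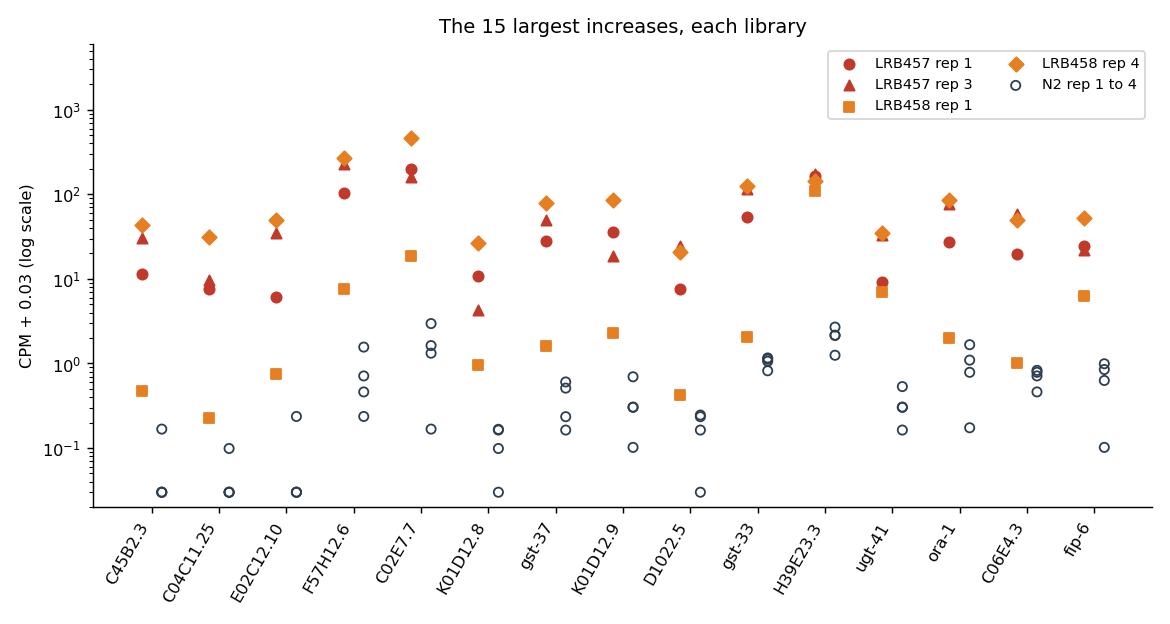
CPM of the 15 genes with the largest called increase (log axis, 0.03 added) in each triple mutant library (filled, left of each tick) and each wild-type library (open, right). H39E23.3 is even across the triple mutant, while LRB458 replicate 1 (orange squares) is the lowest of the 4 in each of the 15 genes.

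The largest decreases were more even within the triple mutant, which is their low group. dod-24 (WBGene00007875, chromosome IV, 12940106 to 12941354), a CUB-like domain gene named as lying downstream of daf-16, fell to 0.126, 0.237, 0.341 and 0.849 CPM in the triple mutant, against 28.6, 46.3, 23.5 and 45.1 CPM in wild type (-6.37 ± 0.44, adjusted p = 4.75e-07). Without LRB458 replicate 4, the highest of the 4 triple mutant values, its log2 fold change was -7.15. ech-7, an enoyl-CoA hydratase gene, fell to 8.92, 8.82, 9.05 and 9.27 CPM in the triple mutant, against 68.6, 82.9, 48.1 and 70.5 CPM in wild type (-2.90 ± 0.16, adjusted p = 1.31e-08). In both genes all triple mutant libraries lay far below all wild-type libraries. Of the cathepsin B family of cysteine proteases, cpr-5 and cpr-1 fell by 2.52 and 2.49 on the log2 scale (adjusted p = 1.79e-07 and 0.00101). The saposin-like gene spp-6 fell by 2.95 (adjusted p = 1.1e-05), the astacin protease gene nas-6 by 2.56 (adjusted p = 5.69e-07) and the fasting-induced lipase gene fil-1 by 2.45 (adjusted p = 1.66e-06). dpy-5, which encodes a cuticle procollagen, had 12.65, 6.92, 5.30 and 3.20 CPM in the triple mutant, against 182, 193, 29.5 and 17.3 CPM in wild type (-3.93 ± 0.80, adjusted p = 0.00379). Its wild-type libraries fell into 2 high and 2 low values.

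In the insulin pathway itself little moved. Of 26 tested core genes 2 fell and 0 rose (7.69% called by edgeR against 20.4% of all tested genes; at an unadjusted p below 0.05 there was 1 higher, and DESeq2 called 0 higher). daf-16 stood at 234, 232, 195 and 217 CPM in the triple mutant, against 245, 199, 132 and 242 CPM in wild type (0.10 ± 0.15, adjusted p = 0.677), with overlapping groups. par-5, a 14-3-3 protein that binds phosphorylated DAF-16, fell to 482 to 549.6 CPM in the triple mutant, against 619 to 788 CPM in wild type (-0.38 ± 0.10, adjusted p = 0.014). sgk-1, a kinase beside AKT in the pathway, fell to 14.8 to 16.21 CPM in the triple mutant, against 18.4 to 21.8 CPM in wild type (-0.36 ± 0.11, adjusted p = 0.0319). This call was lost when any 1 of 7 of the 8 libraries was left out. Among 21 tested insulin-like peptides, the ligands of the receptor, 2 rose and 1 fell (14.3% called, below the 20.4% of all tested genes). ins-27 rose to 28.3, 27.9, 29.4 and 25.8 CPM in the triple mutant, against 13.2, 17.7, 12.98 and 11.6 CPM in wild type (1.01 ± 0.14, adjusted p = 0.000101). ins-5 rose to 2.02, 3.02, 0.827 and 1.81 CPM in the triple mutant, against 0.0682, 0.344, 0.333 and 0.359 CPM in wild type (2.76 ± 0.59, adjusted p = 0.00369). ins-17 fell to 75.7 to 83.8 CPM in the triple mutant, against 101 to 150.1 CPM in wild type (-0.59 ± 0.12, adjusted p = 0.00336). ins-5 stayed near 3 CPM or less in every library, while ins-27 kept its groups apart at a higher level. daf-28 stood at 2.77 to 6.39 CPM in the triple mutant, against 3.44 to 4.45 CPM in wild type (0.20 ± 0.42, adjusted p = 0.78). Of the 15 tested members of the irld family 1 was called (6.67% against 20.4% of all tested genes). This was irld-24, which fell (-0.75 ± 0.23, adjusted p = 0.0282) and lost its call without LRB458 replicate 1, LRB458 replicate 4 or N2 replicate 2. It was chosen after its values were seen. The 15 include irld-35 and irld-53, which stood below 1 CPM in the triple mutant and wild type. They met the floor for testing through the daf-2 mutant, so the share has little meaning for them.

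Genes known to be induced by DAF-16 rose more often than tested genes at large, with exceptions. Of 23 tested members 9 rose and 3 fell (52.2% called against 20.4%), with a median log2 fold change of 0.73 against 0.00 over all tested genes. The count of fallers was 1 without LRB458 replicate 1 and N2 replicate 3 together. sod-3, the mitochondrial manganese superoxide dismutase and a standard DAF-16 reporter, rose to 42.1, 40.6, 31.1 and 37.02 CPM in the triple mutant, against 16.6, 24.5, 14.2 and 10.2 CPM in wild type (1.201 ± 0.24, adjusted p = 0.0025). lipl-4, a lysosomal acid lipase, rose to 2.53, 2.13, 1.26 and 2.70 CPM in the triple mutant, against 0.0682, 0.137, 0.266 and 0.144 CPM in wild type (3.74 ± 0.42, adjusted p = 2.19e-05). icl-1, the bifunctional enzyme of the glyoxylate cycle that turns fat into sugar, rose to 297, 251, 522 and 389.9 CPM in the triple mutant, against 73.1, 122.99, 199 and 110.0 CPM in wild type (1.53 ± 0.32, adjusted p = 0.00416). The groups did not overlap in any of the 3. Against that direction, hsp-12.6, which encodes a small heat shock protein, fell to 62.4, 77.9, 28.6 and 58.0 CPM in the triple mutant, against 135, 192, 237 and 108 CPM in wild type (-1.57 ± 0.27, adjusted p = 0.00089). The metallothionein gene mtl-1 stood at 391, 468, 359 and 441 CPM in the triple mutant, against 449, 498, 484 and 229 CPM in wild type (0.00 ± 0.19, adjusted p = 0.999), with overlapping groups. Of 4 tested genes of the list repressed when DAF-16 is active, dod-24 fell as above. dod-22 fell to 0.569, 0.355, 0.778 and 0.232 CPM in the triple mutant, against 6.27, 9.62, 7.92 and 11.8 CPM in wild type (-4.203 ± 0.34, adjusted p = 1.03e-06). dod-17 and dod-19 were not called (log2 fold changes 0.60 and 0.46). The triple mutant mean of dod-19 was raised by LRB458 replicate 1, at 49.8 CPM against 6.92 to 10.6 CPM in the other triple mutant libraries.

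Enzymes that make and desaturate fatty acids fell more often than they rose. Of 24 tested genes 12 fell (50% against 10.4% of all tested genes) and 1 rose (4.17% against 10.1%), a median log2 fold change of -0.32. fat-2 (WBGene00001394, chromosome IV, 13323873 to 13326395), the desaturase that makes linoleic acid, fell to 246, 213, 262 and 229 CPM in the triple mutant, against 1073, 1342, 795 and 1081 CPM in wild type (-2.18 ± 0.14, adjusted p = 1.47e-07). fat-3, the desaturase of the next step toward the long polyunsaturated fatty acids, fell to 97.5, 79.0, 113 and 81.8 CPM in the triple mutant, against 284, 382, 295 and 287 CPM in wild type (-1.75 ± 0.14, adjusted p = 6.78e-07). The elongase gene elo-2 fell by 0.80 on the log2 scale (adjusted p = 0.000121), and nhr-80, a nuclear receptor that drives desaturase expression, by 0.90 (adjusted p = 0.000201). All 4 triple mutant libraries were below all wild-type libraries for each of these 4 genes. The 1 member that rose was fat-5, a palmitoyl-CoA desaturase (2.05 ± 0.55, adjusted p = 0.017), named after its values were seen.

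Genes of fat breakdown rose more often than they fell, 16 against 6 of 46 tested (47.8% called against 20.4% of all tested genes). acox-1.4, a peroxisomal acyl-CoA oxidase, rose to 12.84, 9.94, 12.1 and 12.97 CPM in the triple mutant, against 3.14, 5.43, 6.12 and 5.24 CPM in wild type (1.26 ± 0.17, adjusted p = 0.000109), and lipl-4, given above, had the largest rise of the list. cpt-4, a carnitine palmitoyltransferase gene, rose to 1.95 to 6.72 CPM in the triple mutant, against 0.477 to 0.998 CPM in wild type (2.34 ± 0.65, adjusted p = 0.0196, named after its values were seen). The fallers included ech-7, given above, and lipl-5, a lysosomal lipase induced by fasting in adults, which fell to 52.05, 38.8, 55.95 and 46.1 CPM in the triple mutant, against 185, 192, 180.4 and 195 CPM in wild type (-1.96 ± 0.16, adjusted p = 7.93e-07). The lipase genes therefore did not move as a block. In the list of gluconeogenesis, trehalose and the glyoxylate cycle 6 of 20 rose and 3 fell (45% called against 20.4% of all tested genes). The mitochondrial enzymes aco-2 (aconitase, 0.81 ± 0.11, adjusted p = 0.000152) and mdh-2 (malate dehydrogenase, 0.71 ± 0.08, adjusted p = 3.02e-05) rose. Of the trehalases, which split the storage sugar trehalose, tre-5 fell to 6.13 to 10.8 CPM in the triple mutant, against 26.8 to 38.9 CPM in wild type (-2.07 ± 0.20, adjusted p = 5.22e-06). tre-3 fell to 32.01 to 37.8 CPM in the triple mutant, against 68.7 to 97.98 CPM in wild type (-1.30 ± 0.13, adjusted p = 4.99e-06). Of 22 glycolysis genes 3 fell (13.6%, near the 10.4% of all tested genes) and 0 rose in edgeR. At an unadjusted p below 0.05 there was 1 higher, and DESeq2 called 0 higher.

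The 3 enzyme families that modify toxins and lipophilic signals rose in large part. Of 66 tested cytochrome P450 genes 32 rose and 3 fell (48.5% and 4.55%). Of 57 UDP-glycosyltransferases 28 rose and 6 fell (49.1% and 10.5%), and of 45 glutathione S-transferases 19 rose and 6 fell (42.2% and 13.3%). Of all tested genes 10.1% rose and 10.4% fell. The median log2 fold changes of the 3 families were 0.87, 0.63 and 0.79. cyp-33C2 rose to 8.66, 15.4, 5.21 and 15.7 CPM in the triple mutant, against 1.77, 1.31, 1.26 and 2.23 CPM in wild type (2.78 ± 0.35, adjusted p = 6.62e-05). ugt-6 rose to 40.4, 46.98, 40.2 and 44.2 CPM in the triple mutant, against 15.2, 20.1, 13.98 and 10.8 CPM in wild type (1.52 ± 0.17, adjusted p = 1.79e-05). The triple mutant libraries of ugt-6 lay close together, while LRB458 replicate 1 was again the lowest for cyp-33C2. The count of lower glutathione S-transferases was 3 without LRB457 replicate 3. gst-27 fell to 28.3, 23.02, 27.98 and 24.98 CPM in the triple mutant, against 62.3, 97.2, 97.7 and 78.4 CPM in wild type (-1.69 ± 0.14, adjusted p = 1.16e-06). gst-22 fell to 4.38 to 7.15 CPM in the triple mutant, against 11.8 to 28.7 CPM in wild type (-1.63 ± 0.22, adjusted p = 0.000122). The glycosyltransferase gene ugt-49 fell to 21.1 to 25.4 CPM in the triple mutant, against 38.3 to 54.7 CPM in wild type (-0.92 ± 0.12, adjusted p = 7.81e-05). In the lines taken alone, LRB457 called 24 and LRB458 18 P450 genes higher.

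Among 29 tested antioxidant enzymes 9 rose and 4 fell (44.8% called against 20.4% of all tested genes). Without LRB458 replicate 4 the count of risers was 5, and without LRB457 replicate 1 or 3 that of fallers was 2. The catalase gene ctl-1 rose to 309, 296, 249.5 and 311 CPM in the triple mutant, against 153, 172, 217 and 139 CPM in wild type (0.77 ± 0.17, adjusted p = 0.00433); it has close copies in ctl-2 and ctl-3 that may share its reads. The glutathione peroxidase gene gpx-5 rose to 17.3 to 27.04 CPM in the triple mutant, against 8.33 to 15.05 CPM in wild type (1.01 ± 0.21, adjusted p = 0.00295). The thioredoxin gene trx-3 fell to 4.50 to 9.39 CPM in the triple mutant, against 9.34 to 24.4 CPM in wild type (-1.54 ± 0.27, adjusted p = 0.00102), with LRB458 replicate 1 inside the wild-type range. Of 26 heat shock proteins 5 rose (19.2% against 10.1% of all tested genes) and 1, hsp-12.6, fell (3.85% against 10.4%), with a median log2 fold change of 0.51. In both directions together 23.1% were called, against 20.4% of all tested genes. The risers included the chaperone genes hsp-70 (1.58 ± 0.30, adjusted p = 0.00168) and hsp-60, of mitochondria (0.79 ± 0.17, adjusted p = 0.00333). The metal-handling genes split, with 7 of 15 higher and 4 lower (73.3% called against 20.4% of all tested genes). The higher count was 4 without any 1 of N2 replicates 2 and 3, LRB457 replicate 3 and LRB458 replicate 4. The ferritin gene ftn-2 fell to 208.8 to 274 CPM in the triple mutant, against 416 to 495 CPM in wild type (-0.91 ± 0.11, adjusted p = 4.13e-05). The metallothionein gene mtl-2 fell to 2.19 to 6.64 CPM in the triple mutant, against 15.6 to 41.5 CPM in wild type (-2.34 ± 0.34, adjusted p = 0.000269). The gene cdr-2, of the cadmium-responsive family, rose to 30.5 to 59.4 CPM in the triple mutant, against 8.99 to 14.6 CPM in wild type (1.995 ± 0.25, adjusted p = 7.63e-05).

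Genes of the cuticle, the collagen coat that the epidermis secretes at each molt, rose in large numbers. Of the tested collagens 50 rose (48.5% against 10.1% of all tested genes) and 7 fell (6.8% against 10.4%), with a median log2 fold change of 0.94. Besides col-42 and col-103, col-166 rose to 315, 274, 330.1 and 363 CPM in the triple mutant, against 95.2, 119, 97.0 and 108 CPM in wild type (1.61 ± 0.19, adjusted p = 2.8e-05). col-98, col-3 and col-117 rose by 0.94 ± 0.18, 0.94 ± 0.18 and 0.95 ± 0.19. The collagens are members of a large family of similar sequences, and reads that fit 2 places were kept at 1 of them by the mapping, so the values of single collagens with near-identical copies are uncertain. The count of fallers was 4 without LRB457 replicate 3 and 3 without LRB458 replicate 1 and N2 replicate 3 together. The summed markers of epidermis and cuticle, given above, overlapped between the groups, and their part in the collagen result was not tested.

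Hedgehog-related and patched-related genes, a family expanded in nematodes and expressed largely in epithelia, rose with the collagens. Of 56 tested 23 rose and 1 fell (42.9% called against 20.4% of all tested genes, median 0.69). grd-13 (WBGene00001702, chromosome IV, 3438312 to 3439507) rose to 25.3, 33.02, 29.4 and 44.6 CPM in the triple mutant, against 3.61, 4.26, 3.06 and 3.16 CPM in wild type (3.23 ± 0.23, adjusted p = 3.29e-07). grd-10 rose to 138, 132, 155 and 167 CPM in the triple mutant, against 32.4, 36.8, 35.1 and 28.7 CPM in wild type (2.15 ± 0.21, adjusted p = 5.71e-06). grd-3 rose to 166.4, 178, 179 and 194 CPM in the triple mutant, against 45.2, 57.03, 25.2 and 41.1 CPM in wild type (2.09 ± 0.27, adjusted p = 7.86e-05). In all 3 genes the lowest triple mutant library was well above the highest wild-type library. Of 30 tested genes of molting and developmental timing 11 rose and 2 fell (43.3% called against 20.4% of all tested genes). mlt-8 rose to 8.41, 6.15, 8.03 and 4.75 CPM in the triple mutant, against 1.23, 2.13, 1.597 and 1.44 CPM in wild type (2.09 ± 0.31, adjusted p = 0.000246). mlt-10 rose to 1.66 to 3.48 CPM in the triple mutant, against 0.344 to 0.933 CPM in wild type (1.63 ± 0.33, adjusted p = 0.0028); both are molting genes. lin-42, the worm's period homolog with a pulse in each molt cycle, rose to 5.88, 3.49, 1.65 and 2.55 CPM in the triple mutant, against 0.546, 0.687, 1.597 and 0.646 CPM in wild type (1.94 ± 0.41, adjusted p = 0.00335). In lin-42 the groups nearly met, with LRB458 replicate 1 barely above N2 replicate 3. Of the 2 fallers, nas-6 held its call when any single library was left out and lin-28, chosen after its values were seen (-0.34 ± 0.11, adjusted p = 0.0467), lost it without any 1 of LRB457 replicates 1 and 3, LRB458 replicates 1 and 4 and N2 replicate 2. The 6 genes of fed larvae past arrest, which include DNA replication genes, held 0 called genes in edgeR and 0 at an unadjusted p below 0.05. Of the 10 early embryo markers tested 2 fell (20% against 10.4% of all tested genes) and 0 rose in edgeR, also 0 at an unadjusted p below 0.05. Their median log2 fold change was -1.22. In 5 of the 10 all triple mutant libraries lay below all wild-type libraries, against 11.3% of all tested genes. The fallers were genes of RNA-binding proteins: oma-2 fell to 3.42, 4.62, 5.06 and 2.93 CPM in the triple mutant, against 6.61, 6.60, 11.2 and 10.8 CPM in wild type (-1.14 ± 0.35, adjusted p = 0.0296). mex-5 fell to 3.73, 4.32, 10.4 and 4.75 CPM in the triple mutant, against 21.8, 11.1, 13.1 and 20.8 CPM in wild type (-1.52 ± 0.49, adjusted p = 0.043). The groups did not overlap in either gene. oma-2 lost its call without any 1 of 5 libraries and mex-5 without any 1 of 6.

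**Figure D4:**
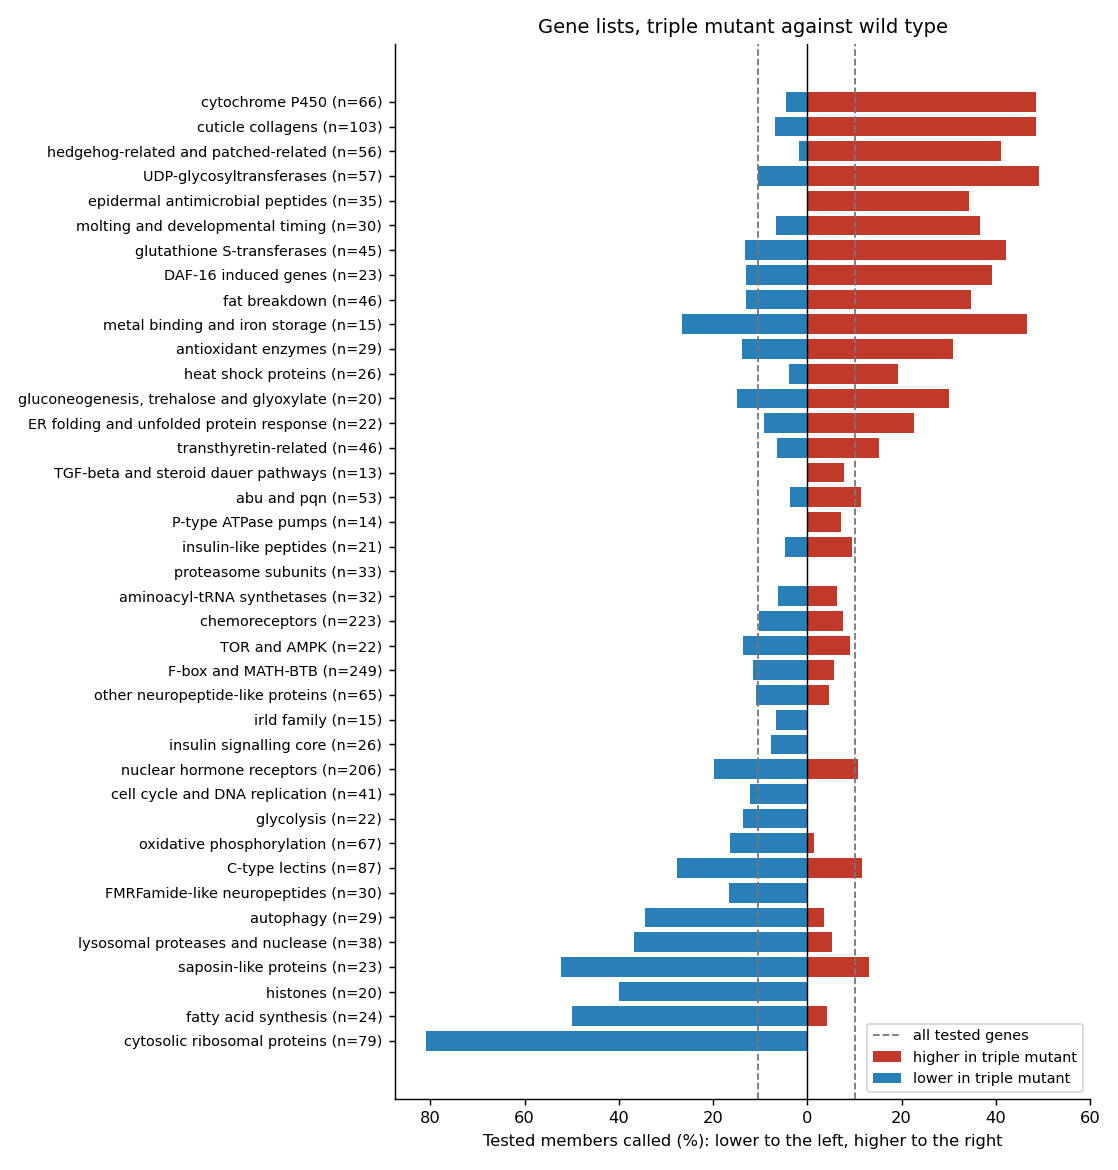
Percent of tested members of each list (10 or more tested members) called higher (red, right) or lower (blue, left) in the triple mutant, with dashed lines at 10.1% and 10.4% for all tested genes. UDP-glycosyltransferases, collagens, cytochrome P450 genes and metal-handling genes extend furthest to the right, and cytosolic ribosomal proteins, saposin-like proteins and fatty acid synthesis furthest to the left.

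Digestive and lysosomal hydrolases fell more often than they rose. Of 38 tested lysosomal proteases and related genes 14 fell (36.8% against 10.4% of all tested genes) and 2 rose (5.26% against 10.1%). asp-14 (WBGene00019619, chromosome X, 6444185 to 6446664), an aspartic protease, fell to 50.97, 45.7, 66.1 and 58.2 CPM in the triple mutant, against 271, 434, 177 and 281 CPM in wild type (-2.39 ± 0.23, adjusted p = 4.99e-06). cpr-5 fell to 14.2, 17.5, 10.4 and 14.4 CPM in the triple mutant, against 67.7, 88.5, 83.1 and 85.1 CPM in wild type (-2.52 ± 0.17, adjusted p = 1.79e-07). nuc-1, the DNase II that degrades DNA in the gut lumen and in phagosomes, fell to 61.4, 51.2, 83.3 and 60.03 CPM in the triple mutant, against 132, 189, 127 and 136 CPM in wild type (-1.19 ± 0.15, adjusted p = 7.1e-05). The groups did not overlap in any of these. The list's 2 risers, aman-1 and gba-2 (log2 fold changes 1.34 and 2.69, named after their values were seen), rested on single libraries: neither was called without any 1 of N2 replicates 1, 2 and 4, LRB457 replicate 3 and LRB458 replicate 4. Of 23 saposin-like proteins, a family with membrane-lytic members made in the gut, 12 fell (52.2% against 10.4% of all tested genes) and 3 rose (13% against 10.1%). spp-3 fell to 146, 134, 162 and 153 CPM in the triple mutant, against 268, 341, 302 and 263.1 CPM in wild type (-0.98 ± 0.12, adjusted p = 5.83e-05). spp-18 fell to 22.8 to 29.1 CPM in the triple mutant, against 51.8 to 85.9 CPM in wild type (-1.26 ± 0.14, adjusted p = 1.91e-05). spp-17 fell to 0.146 to 0.533 CPM in the triple mutant, against 3.0 to 11.6 CPM in wild type (-4.14 ± 0.54, adjusted p = 8.36e-05).

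The intestinal marker list had overlapping sums. Its 7 genes summed to 2105 to 2475 CPM in the triple mutant, against 2006 to 3066 CPM in wild type, and the members went both ways. act-5, the actin of gut microvilli, rose to 196, 229, 298 and 324 CPM in the triple mutant, against 102.7, 114, 102.6 and 121 CPM in wild type (1.25 ± 0.15, adjusted p = 3.07e-05). The gut esterase gene ges-1 fell to 23.8, 21.2, 23.01 and 22.6 CPM in the triple mutant, against 38.3, 41.7, 38.5 and 45.4 CPM in wild type (-0.85 ± 0.11, adjusted p = 5.85e-05), and mtl-2 fell as above. elt-2, the GATA factor of the intestine, stood at 16 to 21.8 CPM in the triple mutant, against 9.85 to 13.8 CPM in wild type (0.49 ± 0.16, adjusted p = 0.0424), and lost its call without any of 6 single libraries.

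Immune effector families split. C-type lectins fell more often than they rose, 24 against 10 of 87 tested (39.1% called against 20.4% of all tested genes). clec-62 fell to 25.3, 21.5, 26.9 and 23.9 CPM in the triple mutant, against 45.9, 58.8, 48.0 and 46.8 CPM in wild type (-1.03 ± 0.11, adjusted p = 1.94e-05). The largest falls of the family were of F56A4.2 (WBGene00018910, chromosome V, 2459637 to 2460893) and clec-209 (WBGene00021224, chromosome V, 2351676 to 2352932), a pair that the annotation gives the same name and that may share reads. F56A4.2 stood at 1.52, 0.592, 1.36 and 1.93 CPM in the triple mutant, against 22.7, 33.5, 15.8 and 16.7 CPM in wild type (-3.998 ± 0.31, adjusted p = 1.01e-06). clec-209 stood at 1.39, 0.769, 1.65 and 2.32 CPM in the triple mutant, against 21, 31.3, 16 and 15.5 CPM in wild type (-3.73 ± 0.30, adjusted p = 1.34e-06). The lysozyme gene lys-2 rose to 21.3, 30.5, 17.95 and 52.7 CPM in the triple mutant, against 4.16, 6.18, 6.92 and 5.10 CPM in wild type (2.45 ± 0.32, adjusted p = 9.27e-05). Of 35 antimicrobial peptide genes of the epidermis 12 rose (34.3% against 10.1% of all tested genes) and 0 fell in edgeR (1 lower at an unadjusted p below 0.05, 0 called lower by DESeq2). The count of risers was 4 without LRB458 replicate 4, 5 without N2 replicate 1 and 6 without LRB457 replicate 3 or N2 replicate 4. fipr-26 rose to 18.8, 22.5, 11.4 and 31.4 CPM in the triple mutant, against 3.14, 4.95, 1.33 and 1.44 CPM in wild type (2.95 ± 0.43, adjusted p = 0.000284), with the highest and the lowest triple mutant library both of line LRB458.

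Transcripts of cytosolic ribosomal proteins fell, each by a small amount. Of 79 tested cytosolic ribosomal protein genes 64 fell (81% against 10.4% of all tested genes) and 0 rose in edgeR, with a median log2 fold change of -0.44. By DESeq2, or at an unadjusted p below 0.05, 0 of the 79 were higher. In 68 of them all triple mutant libraries lay below all wild-type libraries, against 11.3% of all tested genes. rpl-26 fell to 1101, 1006, 1092 and 1119 CPM in the triple mutant, against 1451, 1789, 1529 and 1539.9 CPM in wild type (-0.55 ± 0.11, adjusted p = 0.00197). rps-2 fell to 2952, 2458, 3022 and 2821 CPM in the triple mutant, against 3625, 4546, 4074 and 3567 CPM in wild type (-0.49 ± 0.13, adjusted p = 0.0127). The size of the change is near the limit of the test: the count was 32 without LRB457 replicate 3, 31 when the 8 libraries were fitted alone, and 8 and 1 with line LRB457 or LRB458 alone. In the same range, 10 of 29 autophagy genes fell and 1 rose (37.9% called against 20.4% of all tested genes). The count of autophagy fallers was 4 when the 8 libraries were fitted alone, and 5 and 3 with line LRB457 or LRB458 alone. lgg-2, an Atg8 homolog of the autophagosome, fell to 259, 282, 289 and 289 CPM in the triple mutant, against 427, 529, 446 and 464 CPM in wild type (-0.74 ± 0.09, adjusted p = 3.78e-05). Of 33 proteasome subunits 0 were called by edgeR and 0 by DESeq2, and 1 was lower at an unadjusted p below 0.05.

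Among regulators, 22 of 206 tested nuclear hormone receptors rose (10.7%, near the 10.1% of all tested genes) and 41 fell (19.9% against 10.4%), and the count of fallers was 26 without LRB457 replicate 3. nhr-18 fell to 66.2, 59.2, 57.02 and 57.7 CPM in the triple mutant, against 94.9, 127, 109 and 99.9 CPM in wild type (-0.84 ± 0.09, adjusted p = 1.94e-05). nhr-263 rose to 3.25 to 3.98 CPM in the triple mutant, against 1.17 to 1.43 CPM in wild type (1.48 ± 0.20, adjusted p = 0.000129). F-box and MATH-BTB genes, adaptors of protein degradation in many copies, were called at 17.3% against 20.4% of all tested genes, and chemoreceptors at 17.9%. Single members still moved evenly. fbxa-24 fell to 219.9, 185, 250.4 and 198 CPM in the triple mutant, against 469, 593, 485 and 475 CPM in wild type (-1.24 ± 0.11, adjusted p = 2.4e-06). The chemoreceptor-like gene srlf-1 rose to 218, 272, 223 and 296 CPM in the triple mutant, against 105, 150.5, 113 and 112 CPM in wild type (1.07 ± 0.15, adjusted p = 0.000118).

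Neuropeptide genes fell more often than they rose. Of 30 FMRFamide-like neuropeptide genes 5 fell (16.7% against 10.4% of all tested genes) and 0 rose in edgeR, with a median log2 fold change of -0.43. At an unadjusted p below 0.05, or by DESeq2, 0 were higher. Of 65 other neuropeptide-like genes 7 fell (10.8%, near the 10.4% of all tested genes) and 3 rose (4.62% against 10.1%). In both directions together 16.7% and 15.4% of these lists were called, below the 20.4% of all tested genes. flp-10 fell to 17.8, 19.9, 22.1 and 18.96 CPM in the triple mutant, against 32.9, 41.98, 38.9 and 35.3 CPM in wild type (-0.92 ± 0.14, adjusted p = 0.000287). nlp-15 fell to 43.3, 40.1, 43.9 and 46.9 CPM in the triple mutant, against 61.8, 75.4, 86.8 and 58.4 CPM in wild type (-0.70 ± 0.13, adjusted p = 0.00142). The groups did not overlap in either gene. The count of lower FMRFamide-like genes was 3 without LRB458 replicate 1, and that of lower other neuropeptide-like genes 4 without LRB457 replicate 3 or LRB458 replicate 4. The 3 risers became 0 without N2 replicate 1 or LRB458 replicate 4 and 1 without LRB457 replicate 3 or N2 replicate 4. The summed neuronal markers, 1559 to 1808 CPM in the triple mutant against 1468 to 2489 CPM in wild type, overlapped, and their part in this result was not tested. The galectin gene lec-2, among the largest losses by CPM, fell to 677, 642, 753 and 705 CPM in the triple mutant, against 2416, 1705, 1242 and 2391 CPM in wild type (-1.48 ± 0.18, adjusted p = 4.57e-05).

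Genes of growth, energy and protein folding were called at shares below, near or above that of all tested genes, list by list. Of 41 cell cycle and DNA replication genes 5 fell (12.2%, near the 10.4% of all tested genes) and 0 rose in edgeR (1 higher at an unadjusted p below 0.05, 0 by DESeq2). The count of fallers was 3 without any 1 of N2 replicates 1 and 3, LRB457 replicates 1 and 3 and LRB458 replicate 4. The fallers included the kinase gene cdk-2 (-0.53 ± 0.11, adjusted p = 0.00303) and cki-1, an inhibitor of cyclin-dependent kinases that holds blast cells in arrest (-0.43 ± 0.11, adjusted p = 0.00958). Of 67 genes of oxidative phosphorylation 11 fell and 1 rose (17.9% called), but the count of fallers was as low as 2, without LRB457 replicate 3. ndub-8 of complex I fell to 106 to 115 CPM in the triple mutant, against 136 to 181 CPM in wild type (-0.50 ± 0.11, adjusted p = 0.00327). The TOR and AMPK list held 2 risers and 3 fallers of 22 (22.7% called, near the 20.4% of all tested genes), of which aak-1, a catalytic subunit of the energy sensor AMPK, fell to 11.4 to 12.5 CPM in the triple mutant, against 14.2 to 22.9 CPM in wild type (-0.69 ± 0.14, adjusted p = 0.00275), and held 6 fallers without N2 replicate 3. Of 22 genes of folding in the endoplasmic reticulum 5 rose and 2 fell (31.8% called): the disulfide isomerase gene pdi-2 rose (0.56 ± 0.12, adjusted p = 0.00451) and the calnexin gene cnx-1 fell (-0.37 ± 0.09, adjusted p = 0.00618). Of 20 histone genes 8 fell and 0 rose in edgeR (40% called; 0 higher at an unadjusted p below 0.05 or by DESeq2). his-60 fell to 1.90, 2.01, 1.46 and 1.70 CPM in the triple mutant, against 5.11, 6.39, 9.85 and 5.24 CPM in wild type (-1.91 ± 0.23, adjusted p = 4.12e-05). The count of histone fallers was 5 without LRB458 replicate 1, LRB457 replicate 3 or N2 replicate 2. Most histone messages lack the poly(A) tail used to select RNA here, and near-identical copies may share reads. The remaining lists were called at shares from 7.14% to 21.7%, against 20.4%: aminoacyl-tRNA synthetases (12.5% of 32), transthyretin-related genes (21.7% of 46), abu and pqn genes (15.1% of 53), dauer genes of the TGF-beta and steroid branches (7.69% of 13) and P-type ATPase pumps (7.14% of 14).

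**Figure D5:**
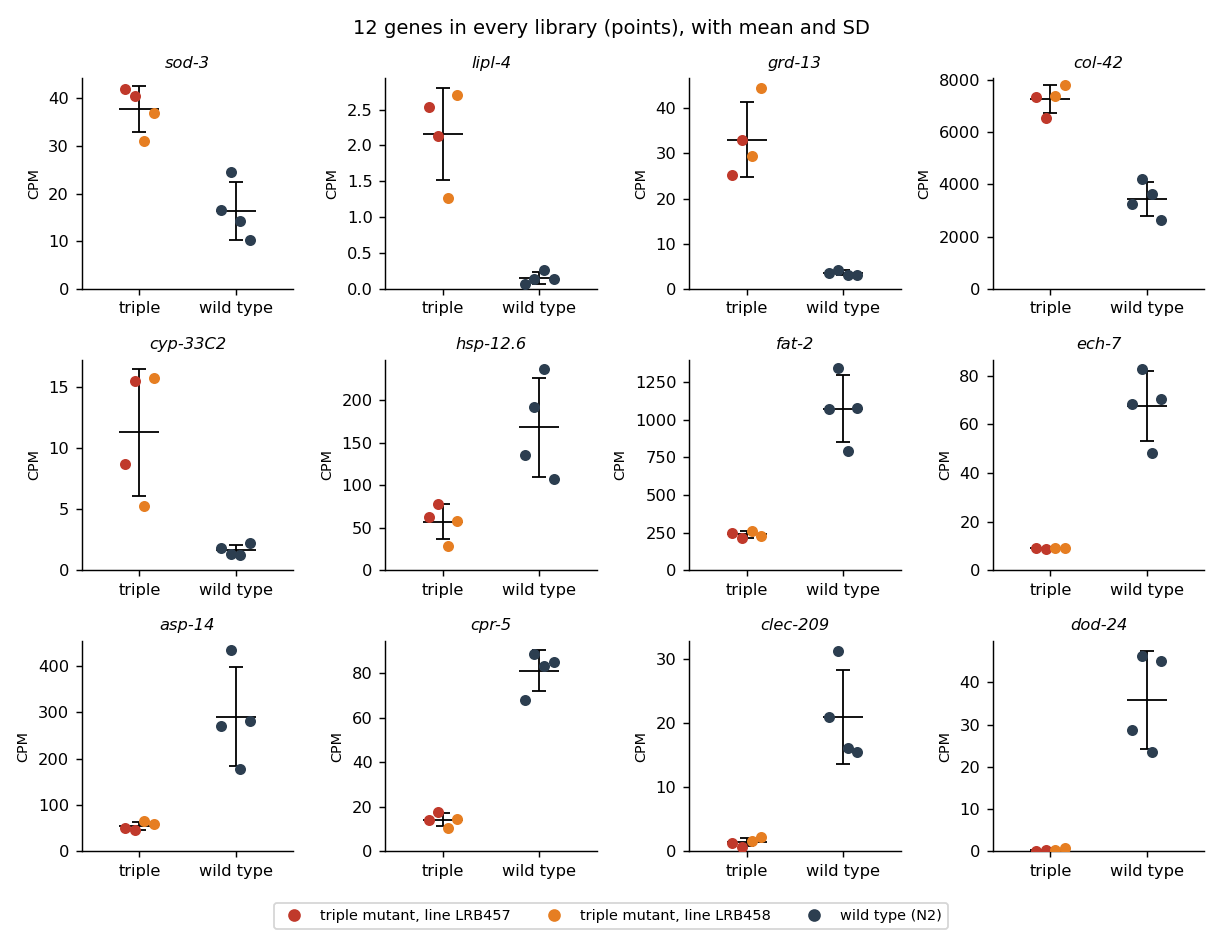
CPM of 12 genes in every library, the triple mutant left (red LRB457, orange LRB458) and wild type right (dark), with mean and SD (n = 4 each) as black bars; each panel has its own axis from 0. The groups do not overlap in any of the 12 panels.

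By position, called genes were spread over all chromosomes, from 17.4% of tested genes on chromosome I to 24.0% on chromosome V, where 13.1% rose and 10.9% fell. Within 1 Mb on either side of irld-52 (chromosome V, 15779679 to 15781247) 78 of 254 tested genes were called (30.7%), 36 higher and 42 lower, against 15 of 107 (14%) around irld-39 on chromosome IV and 42 of 243 (17.3%) around daf-2 on chromosome III. The part of gene content in the share around irld-52 was not tested.

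The lines agreed in direction. All 1413 risers had a positive and all 1458 fallers a negative log2 fold change in each line taken against wild type, with medians of 1.04 in LRB458 and 1.01 in LRB457 over the risers and of -0.64 in LRB458 and -0.65 in LRB457 over the fallers. These line values come from the libraries that made the calls and are no separate evidence. LRB458 against LRB457 gave no called gene in edgeR (349 genes, 2.48%, at an unadjusted p below 0.05) and 1 in DESeq2. The smallest adjusted p was that of C29F3.7, with 18.98 and 20.5 CPM in LRB458, against 4.996 and 7.16 CPM in LRB457 (1.70 ± 0.29, adjusted p = 0.398). With 2 libraries a line, a gene that misses the threshold is not shown to be alike in both. The libraries of LRB458 lay further apart on the first component (12.98 and 58.4) than those of LRB457 (44.3 and 49.3).

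Set against the single mutants, the triple mutant differed from the daf-2 mutant in few genes by this test. Between them 13 genes passed (0.0925% of tested genes), 2 higher (0.0142%) and 11 lower (0.0782%) in the triple mutant, and 915 had an unadjusted p below 0.05. A gene that misses the threshold is not shown to be alike in the pair. All 13 lie on chromosome V, with 10 starts between 2345676 and 2530146. Between the triple mutant and the irld double mutant 2593 genes passed (18.4%), 1378 higher (9.80%) and 1215 lower (8.64%). Without LRB457 replicate 3 the lower count was 779, and without LRB458 replicate 4 it was 795. The triple, daf-2 and irld contrasts against wild type share the wild-type libraries, so values are given side by side. For sod-3 the log2 fold change over wild type was 1.201 with all 3 alleles, 1.30 with daf-2(e1370) alone and -0.13 with both irld alleles. For fat-2 the values were -2.18, -1.89 and 0.02 in that order, for grd-13 3.23, 2.87 and -0.27, for H39E23.3 6.17, 6.23 and -0.44, and for hsp-12.6 -1.57, -1.48 and -0.33. Over the 1413 risers the medians were 1.04, 0.82 and 0.03, and over the 1458 fallers -0.65, -0.53 and -0.11, with the members chosen by the first value of each set.

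Among the genes that differed between the triple and the daf-2 mutant, a pair of C-type lectins was also far from wild type. F56A4.2 averaged 1.35 ± 0.560 CPM in the triple mutant, 45.7 ± 7.43 CPM in the daf-2 mutant, 18.2 ± 3.66 CPM in the irld double mutant and 22.2 ± 8.18 CPM in wild type (SD, n = 4 each). The mean of the triple mutant was the lowest of the 4 (-5.04 ± 0.32, adjusted p = 1.85e-07 against the daf-2 mutant, and -3.71, adjusted p = 2.05e-06 against the irld double mutant). clec-209, its pair, averaged 1.53 ± 0.641, 46.2 ± 5.45, 18.96 ± 4.49 and 20.97 ± 7.29 CPM in the same order of groups. In the other 11 genes the mean of the daf-2 mutant was the one farthest from the other 3 means. The chemoreceptor gene srw-85 averaged 134 ± 7.12 CPM in the triple mutant, 2.20 ± 0.705 in the daf-2 mutant, 143 ± 11.9 in the irld double mutant and 122 ± 42.9 in wild type (5.94 ± 0.30, adjusted p = 8.25e-09 against the daf-2 mutant). irld-35 and irld-53, a second pair with 1 name in the annotation, averaged 0.207 ± 0.0480 and 0.0970 ± 0.0983 CPM in the triple mutant, 29.98 ± 5.53 and 32.2 ± 5.23 CPM in the daf-2 mutant and 0.0854 ± 0.0318 and 0.0172 ± 0.0344 CPM in wild type. Both met the floor for testing through the daf-2 mutant, the group in which they are high. Of the remaining 8 genes, 2 further pairs also share an annotated name, C01B4.6 with Y19D10A.16 and C13B7.6 with Y45G12C.16, and how reads were split within such pairs was not tested. Without LRB458 replicate 1 the count of genes higher in the triple than in the daf-2 mutant was 4.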

How the data were processed

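Polyadenylated RNA of 16 libraries was deposited as raw counts per gene, 1 file per library. Per the deposited notes and the submitters' processing notes, the authors mapped reads with Bowtie 1.2.2 to WS273, allowing reads with up to 2 alignments and reporting 1, and counted them with HTSeq 0.11.2. Whether strand was used is not given in the sources used here. The 5 HTSeq summary entries of each file were left out, and 46911 genes remained. A floor of 1 CPM in 4 or more libraries was set, and the genes above it were tested with edgeR 4.0.16 (R 4.3.3): TMM factors, robust quasi-likelihood fit over 16 libraries in 4 groups (5 when the lines were compared), and Benjamini-Hochberg adjustment over all tested genes at 0.05. CPM use TMM-scaled library sizes. The standard error of a log2 fold change was taken as its size divided by the square root of F. Intervals on summed counts are exact and cover counting error only. Names and coordinates come from the WBcel235 annotation, and where it gives 1 name to 2 genes, from the authors' deposited table. The compared libraries and all gene lists were chosen with earlier results of these data known. Genes named are those of a rule (the largest changes, up to 4 called per list by adjusted p, the extremes between lines) unless said otherwise. Alternatives were DESeq2 1.42.0, other scalings and filters, the 8 libraries alone, each line alone, a replicate block and leaving out each library. The fit was tested on simulated data with known changes. A search of promoter sequences was not run.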

Additional observations from a re-analysis of the deposited data

Results flagged for a closer look

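In each group of 4 libraries, a library was singled out when its gap to the nearest of the others took up more of the group's whole range than Dixon's 95% critical value. Chance alone does this in about 1 group in 20. Of 248 groups examined, for the genes and marker sums named here, 30 (12.1%) had such a library. LRB458 replicate 1 was above the other 3 triple mutant libraries for dod-19 with 49.8 CPM (others 6.92 to 10.6), elt-2 with 21.8 CPM (others 16 to 16.6), mex-5 with 10.4 CPM (others 3.73 to 4.75) and trx-3 with 9.39 CPM (others 4.50 to 4.62). LRB458 replicate 1 was below the other 3 triple mutant libraries for hsp-70 with 4.62 CPM (others 7.02 to 7.34) and spp-18 with 22.8 CPM (others 28.9 to 29.1). LRB457 replicate 3 was below the other 3 triple mutant libraries for summed epidermis and cuticle markers with 118 CPM (others 137 to 138). N2 replicate 2 was above the other 3 wild-type libraries for C45B2.3 with 0.137 CPM (others at 0), clec-62 with 58.8 CPM (others 45.9 to 48.0), cnx-1 with 313 CPM (others 265 to 267), col-117 with 869.6 CPM (others 634 to 673), col-3 with 884 CPM (others 673 to 694), fat-3 with 382 CPM (others 284 to 295), fbxa-24 with 592 CPM (others 469 to 485), irld-53 with 0.0687 CPM (others at 0), lin-28 with 257 CPM (others 179.8 to 185), nuc-1 with 189 CPM (others 126.5 to 136) and srlf-1 with 150.5 CPM (others 105 to 113). N2 replicate 2 was below the other 3 wild-type libraries for mlt-10 with 0.344 CPM (others 0.865 to 0.933) and srw-85 with 58.2 CPM (others 142 to 147). N2 replicate 3 was above the other 3 wild-type libraries for cpr-1 with 95.8 CPM (others 36.03 to 44.9), fat-5 with 6.19 CPM (others 0.955 to 1.65), irld-35 with 0.133 CPM (others 0.0682 to 0.0718), lin-42 with 1.597 CPM (others 0.545 to 0.687), mtl-2 with 41.5 CPM (others 15.6 to 19.5) and spp-6 with 21.2 CPM (others 7.77 to 9.62). N2 replicate 3 was below the other 3 wild-type libraries for summed body wall muscle markers with 9441 CPM (others 22400 to 23470) and summed epidermis and cuticle markers with 83.6 CPM (others 128 to 135). N2 replicate 1 was below the other 3 wild-type libraries for ins-5 with 0.0682 CPM (others 0.333 to 0.359). N2 replicate 4 was above the other 3 wild-type libraries for Y45G12C.16 with 6.03 CPM (others 4.88 to 4.99). These values touch the results on the same genes given above: a high N2 replicate 2 widens the falls of fat-3, nuc-1, clec-62 and fbxa-24 and narrows the rises of col-3, col-117 and srlf-1, while the groups still did not overlap in any of these 7 genes.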

How the results depend on the processing

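Of the 2871 genes called between the triple mutant and wild type (1413 higher, 1458 lower), no gene of the naming rule changed direction under any setting tried. This does not cover the genes named after their values were seen. Deviations of same-numbered libraries from their group means correlated at 0.0228, 0.00762, 0.119 and -0.0519, and those of unlike number at -0.15 to 0.139. These values cannot decide whether a replicate number marks a shared batch. A fit with the replicate block called 2428 genes, 2313 of them among the 2871. Between the triple and the daf-2 mutant it called 7 genes higher against 2. Other scalings and filters called 2860 (DESeq2 size factors), 2869 (library sizes of all reads), 2268 (no filter on low counts) and 2932 (filterByExpr). The DESeq2 Wald test, fitted to every gene with a count, called 3307, 1725 higher and 1582 lower. Its median log2 fold change over those genes was 0.12, and edgeR without a filter on low counts also gave 0.12. The 0.00 of the main fit is over the filtered genes. Between the triple and the daf-2 mutant the DESeq2 Wald test called 26 genes, 11 of them higher. Fitting the 8 libraries alone called 2067, with 970 lower. A test against 1.5-fold called 623, 378 higher and 245 lower. Line LRB457 alone called 1552, 828 higher and 724 lower, and line LRB458 alone 1390, 758 higher and 632 lower. Between the lines the DESeq2 Wald test and the fit without a filter each called 1 gene, which was higher in LRB458.

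Leaving out 1 library at a time gave 2057 to 2745 called genes, 11 to 13 between the triple and the daf-2 mutant with 2 to 4 higher, 779 to 962 lower against the irld double mutant, and 0 to 2 between the lines, all higher in LRB458, where the lone library of a line is assumed to vary like the other groups. Of 186 called genes of the naming rule, 171 to 179 kept their call without any 1 library, and rps-2 lost it without LRB457 replicate 3 (adjusted p = 0.0555). Of these 186, 169 kept it without LRB458 replicate 1 and N2 replicate 3, a setting added after the data were seen. The cause of these changes was not tested. Genes below 1 CPM are limited by depth and were not tested. The planned search of promoter windows for a motif, and its other window, were not run.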
